A study of Bos taurus with 10 samples.

Results

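The intercaruncular uterus of an adult cow was compared with 9 other bovine tissues at the autosomal CG sites that every library covered. The rule took sites of the same chromosome, position and strand with at least 8 reads in all 10 libraries, which gave 51227 sites. These were 40.6 % of the 126076 autosomal CG sites read in uterus and 11.3 % of the 452664 read in at least 1 library. The other tissues were skeletal muscle, nucleated blood cells and lactating mammary gland (d 90 of lactation) from adult females, testis from an adult male, mammary parenchyma, frontal cortex, abomasum and ileum from juvenile females, and rumen from a male fetus of 180 d. All came from a Hereford cow or her relatives, and the labels do not tie a tissue to an animal. Each tissue was 1 library, so age, sex, animal and library preparation cannot be told apart from tissue, and every test between tissues compares single libraries.

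The intercaruncular area is the uterine wall between the caruncles, the raised patches of lining to which the ruminant placenta attaches. It carries the uterine glands, and stroma, smooth muscle, vessels and blood cells lie beneath its epithelium. In mammals, DNA methyltransferases place methyl groups mainly on the cytosine of CG, and the maintenance enzyme copies the pattern at replication, so that cell types keep different patterns. Dense clusters of CG, the CG islands, are usually free of methylation, while most scattered CG sites carry it. Reduced representation bisulphite sequencing (RRBS) cuts DNA at CCGG with MspI and reads the fragment ends after bisulphite has converted unmethylated cytosines. The methylation level of a site is the share of reads that still show a cytosine, and in a bulk tissue a change in every cell and a change in the share of cells cannot be told apart.

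The sequences below are the stretches around the CG sites on which the results turn. Each is the plus strand of UMD3.1 from 5′ to 3′, joined from the overlapping 5-base strings deposited with the cytosines, and capitals mark the measured CG sites. No UMD3.1 annotation was used here, so genes at these positions are not given. The first stretches are 4 clusters of neighbouring CG sites where uterus lay below or above all other tissues. The first 3 had uterus lowest, and chr13:84030984-84031027 had uterus highest.
chr5:108218457-108218496: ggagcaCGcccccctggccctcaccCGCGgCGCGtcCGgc
chr22:60112535-60112581: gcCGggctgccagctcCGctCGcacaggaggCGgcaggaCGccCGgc
chr22:60024269-60024317: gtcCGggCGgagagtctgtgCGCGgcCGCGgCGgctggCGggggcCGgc
chr13:84030984-84031027: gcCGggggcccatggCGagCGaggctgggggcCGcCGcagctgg

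The next stretches hold the 4 single CG sites at which uterus was highest by at least 25 points, and the site on chromosome 1, which had the next widest gap among sites with at least 20 reads in every library. Those on chromosomes 19, 21 and 28 were the whole yield of sites that set uterus apart from all 9 tissues. In each, the capitals mark the 1 site concerned.
chr19:18452-18515: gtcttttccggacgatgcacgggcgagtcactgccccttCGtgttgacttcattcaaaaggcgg
chr21:19889102-19889182: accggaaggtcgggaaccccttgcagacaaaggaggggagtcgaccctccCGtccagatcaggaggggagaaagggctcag
chr28:39355616-39355668: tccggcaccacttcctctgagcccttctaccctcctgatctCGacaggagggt
chr1:5307003-5307045: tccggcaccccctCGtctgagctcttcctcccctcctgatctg
chr3:21600714-21600764: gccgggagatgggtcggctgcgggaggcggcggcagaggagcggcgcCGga

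Uterus was among the deeply read libraries at the shared sites. Its median was 42 reads per site, against 12 in abomasum and 32 to 50 in the other 8 tissues. At least 20 reads were present in uterus at 95.4 % of the sites, the highest share of the 10 libraries, against 19.8 % in abomasum. The mean methylation level of the shared sites was 29.7 % in uterus and lay between 24.1 % in testis and 31.8 % in nucleated blood cells elsewhere. The X chromosome gave a check of the sex of the library, though not of its tissue, since an inactive X is methylated at many CG islands. The mean level at 1050 X-linked CG sites was 42.0 % in uterus, within the range of the other 7 female tissues (35.8 to 45.6 %), and was 19.7 % in testis and 24.1 % in rumen, the male tissues. Few CG sites were read in uterus alone, 1122 or 0.890 % of its sites, against 704 in frontal cortex and 128604 in testis.

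Differentially methylated cytosines (DMCs) were called for each of the 45 pairs of tissues from the methylated and unmethylated reads (Fisher's exact test, Benjamini-Hochberg adjustment over all shared sites). A call needed levels at least 25 points apart and a q under 0.01. A tissue-specific DMC (tDMC) was called with the same sign against each of the other 9 tissues. Uterus had 0 tDMCs with a lower level and 3 with a higher level, or 0.00586 % of the sites tested. The totals in the other tissues were 0 in mammary parenchyma, 1 in ileum, 2 in skeletal muscle, 4 in rumen, 14 in frontal cortex, 16 in abomasum, 39 in lactating mammary gland, 87 in nucleated blood cells and 342 in testis. The number in uterus lay below that in 6 of the 9 tissues and above that in 3, and did not stand apart from them (exact permutation test, two-sided, p = 0.5, where 1 tissue against 9 cannot give less than 0.1). Leaving out any 1 of the other tissues gave the same counts of 0 and 3, and no site set uterus and 1 partner tissue together apart from the other 8.

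Without regard to the test, few sites had uterus at the end of the range by a wide gap. Uterus had the lowest level of the 10 at 549 sites (1.07 %) and the highest at 4506 sites (8.80 %). With a gap of at least 5 points to the nearest tissue the numbers were 109 and 648, and with at least 10 points 34 and 135. At a gap of 25 points, the smallest difference that a call allowed, 1 site remained with uterus lowest and 4 with uterus highest. The gaps nearest to this limit were 24.7 points outside and 25.02 points inside for the highest sites, and 24.3 and 27.8 points for the lowest. The 169 sites with a gap of at least 10 points were the fewest of the 10 tissues, where ileum had 262, the median of the other 9 was 695 and testis had 4990 (exact permutation test, two-sided, p = 0.2).

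**Figure D1:**
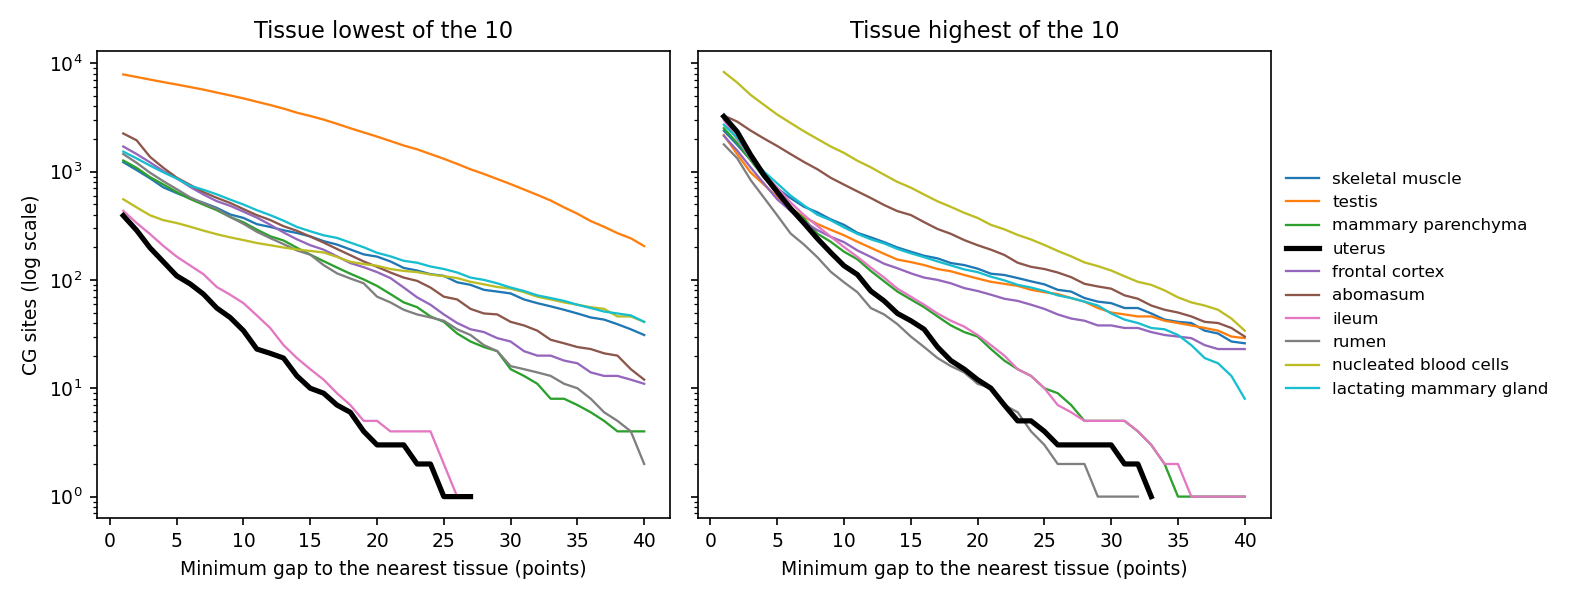
Number of CG sites (log scale) at which each tissue was the lowest (left) or the highest (right) of the 10, against the minimum gap in points to the nearest tissue, with 1 line per tissue and uterus in thick black. The line of uterus lies below that of the 9 other tissues in the left panel up to a gap of 25 points, where it reaches 1 site, and it falls to 4 sites at that gap in the right panel.

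At the sites where tissues differed, uterus was usually inside the range of the others. The levels of the 10 tissues spanned at least 25 points at 14651 sites. Uterus lay within the range of the other 9 at 93.8 % of these, the largest share of the 10 tissues, against 90.9 % for ileum, 69.5 % for nucleated blood cells and 52.1 % for testis. The median distance of uterus from the median of the other tissues was 5.56 points, the smallest of the 10, where the others lay between 5.91 in skeletal muscle and 19.7 in testis (exact permutation test, two-sided, p = 0.2). The deviation was not even in direction, as uterus lay above the median of the others at 61.7 % of the variable sites, by a median of 2.27 points. Uterus had the largest share of shared sites with at least 20 reads (95.4 %). The share inside the range and the distance from the median were not redone at equal depth, so the part of depth in them was not tested. Over all shared sites, uterus was the tissue with the highest Pearson's r for ileum (0.981), nucleated blood cells (0.977), skeletal muscle (0.972) and frontal cortex (0.965). These coefficients are across 51227 sites of the same fragments, which are not independent, and describe the libraries only.

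The 3 tDMCs of uterus and the fourth site with a gap of 25 points shared a feature that the rule did not use. Each was covered by fewer reads in uterus than the median of the cytosines around it. The reads of a site were set against the median of the cytosines of any context on the same strand within 20 bp. Over all shared sites with such neighbours, 550 of 50749 (1.08 %) had under 75 % of the reads of their neighbours in uterus, whereas all 4 sites at the 25-point gap did. Among the 130 sites with uterus highest by at least 10 points that had neighbours, 14 (10.8 %) were of this kind, and among the 34 with uterus lowest there were 0.

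The site at position 18491 of chromosome 19 (plus strand) was read as methylated in 192 of 192 reads in uterus (100 %, 95 % Wilson interval 98.04 to 100 %). In the other tissues its level ranged from 37.3 % in frontal cortex over a median of 53.4 % to 67.3 % in ileum, and the largest q of the 9 pairs was 3.7e-20 (Fisher's exact test, Benjamini-Hochberg). The neighbouring cytosines held a median of 287 reads in uterus, so that the site held 66.9 % of them, against 92.5 to 105 % in the other tissues. Among its 7 neighbours with deposited reads, 2 were also thinly covered in uterus, with 139 and 214 reads. Other cytosines within 20 bp, CG sites among them, had no deposited reads in uterus. When the missing reads were counted as unmethylated, the level in uterus was 66.9 % and lay within the range of the others (37.3 to 67.3 %).

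On chromosome 21, the site at position 19889152 (plus strand) had a level of 58.8 % in uterus (77 of 131 reads, interval 50.2 to 66.8 %). Elsewhere it was lowest in testis at 16.2 % and highest in mammary parenchyma at 28.6 %, with a median of 19.0 % and a largest q of 3.1e-05 (Fisher's exact test, Benjamini-Hochberg). Its neighbours held a median of 396 reads in uterus, and the site held 33.1 % of them, against 76.1 to 110 % in the other tissues. One of its 7 neighbours, past the end of the read, had 8 reads. With the missing reads as unmethylated the level was 19.4 % in uterus and 12.3 to 26.9 % in the others. This site is base 49 counted from the cut, the last base of a 49 bp read.

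The tDMC at position 39355657 of chromosome 28 (plus strand) was methylated in 177 of 178 reads (99.4 %, interval 96.9 to 99.9 %). The other tissues lay between 49.6 % in frontal cortex and 74.4 % in nucleated blood cells with a median of 65.3 %, and the largest q was 1.1e-05 (Fisher's exact test, Benjamini-Hochberg). Here uterus held 72.4 % of the 246 reads of the neighbours and the other tissues 80 to 101 %. Counting the missing reads as unmethylated gave 72.0 % in uterus, against 44 to 74.3 % elsewhere.

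The remaining site at the 25-point gap, at position 21600762 of chromosome 3 (minus strand), showed the pattern at lower depth. Counted from the cut it is base 1, at the start of a read, while the sites on chromosomes 19, 28 and 1 are bases 32, 40 and 12. It was methylated in 16 of 16 reads in uterus (interval 80.6 to 100 %) and at 18.2 to 66.7 % in the other tissues, and it was called in 4 of the 9 pairs. The site held 48.5 % of the 33 reads of its neighbours, and the level with missing reads as unmethylated was also 48.5 %, inside the range of the others.

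A pair of further sites, on chromosomes 1 and 25, was named because uterus was highest there by the next widest gaps among sites with at least 20 reads in every library. At position 5307016 of chromosome 1 (plus strand) uterus had 200 of 200 reads methylated, against 42.6 to 80.1 % elsewhere, and the site was called in 6 pairs. It held 200 reads where its neighbours held a median of 399, and 2 of those 16 neighbours, both outside the CG context, held 199 and 200. At position 32365054 of chromosome 25 (minus strand) uterus had 56.4 % (787 of 1395 reads), with 3.16 to 39.6 % elsewhere, and 7 pairs were called. The 1395 reads were 50 % of the 2790 reads of the neighbours, and testis and rumen also held 50 % of theirs at this site. With the missing reads counted as unmethylated, uterus was at 50.1 % and 28.2 % at these 2 sites, both within the range of the other tissues.

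**Figure D2:**
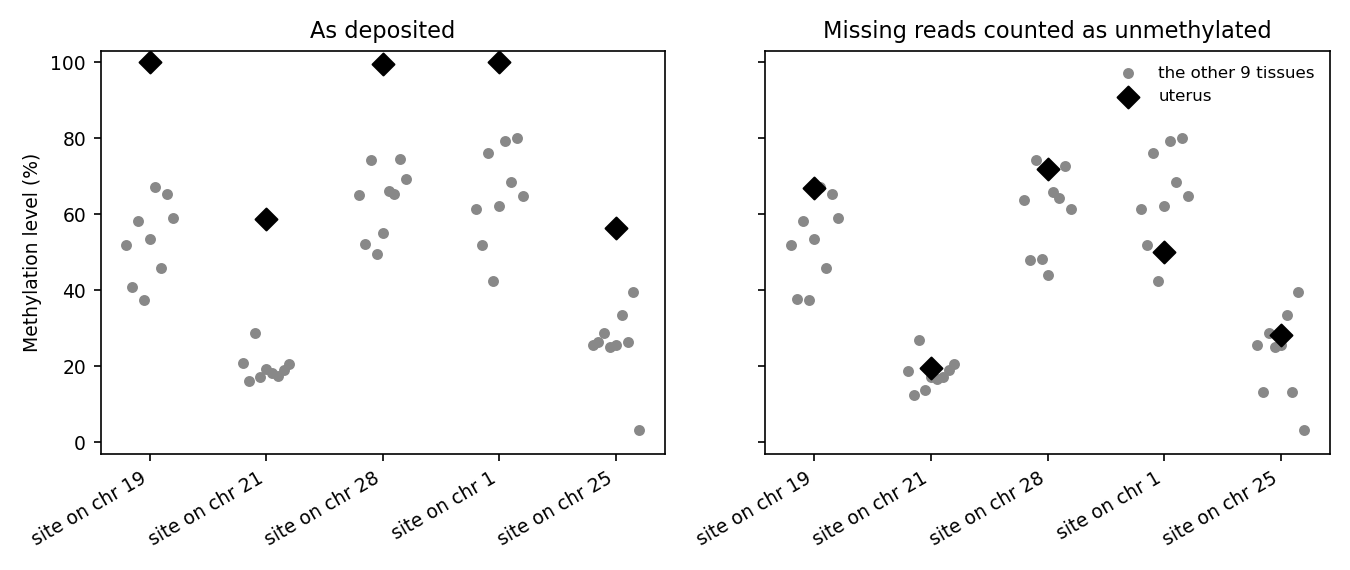
Methylation level (%) of the 5 CG sites with the widest gap above the other tissues where every library had 20 or more reads, named by chromosome, in uterus (black diamonds) and in each of the other 9 tissues (grey points), as deposited (left) and with the missing reads counted as unmethylated (right). Uterus is above all other tissues at each site on the left, by 16.8 to 32.7 points, and within their range on the right.

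The reads themselves were not used here, so whether the missing reads were unmethylated was not tested. Counting them so can only lower a level. In uterus, the neighbouring CG site at chromosome 1 had 95.3 %, against 50.1 % by this count. At chromosome 21 the values were 43.5 % and 19.4 %, and at chromosome 25 they were 43.8 and 45.5 % against 28.2 %. The neighbouring CG sites at chromosome 3 had 39.4 to 46.9 %, against 48.5 %. Whether sites and neighbours also differ in the other tissues was not compared. At chromosomes 19 and 28 no neighbour with deposited reads in uterus was a CG. The stretch of chromosome 19 does hold CG sites within 20 bp upstream of the site, but these had no deposited reads in uterus. The sites on chromosomes 21, 28 and 1 also shared sequence. The longest run common to chromosomes 21 and 1 was 16 bases, cagatcaggaggggag, on opposite strands, and 12 bases of it, agatcaggaggg, were found again at chromosome 28. No other pair among the stretches of the 7 single sites examined shared a run of more than 7 bases. Only the longest exact run was taken, and the stretches of chromosomes 28 and 1 also both open with tccggcacc and both hold tctgagc.

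The single site with uterus lowest by 25 points lay at position 48082444 of chromosome 13 (plus strand). Its level was 50 % in uterus from 5 of 10 reads (interval 23.7 to 76.3 %) and 77.8 to 100 % in the others, and it was called in 0 of 9 pairs. It held as many reads as its neighbours. Among the sites with at least 20 reads in every library, the 5 widest gaps on this side were only 3.68 to 5.01 points, and the uterus interval included the level of the nearest tissue at each. The site at position 19407671 of chromosome 29 (plus strand) was the one of them with calls, in 2 pairs. It was at 5.13 % in uterus (6 of 117 reads), 9.30 to 21.4 % in 7 other tissues, 52.5 % in nucleated blood cells and 55.1 % in rumen.

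Neighbouring sites gave a second view with more reads behind each value. The shared sites were joined into clusters of at least 4 sites with at most 50 bp between neighbours, which gave 4898 clusters with 47883 sites. The mean level of uterus was outside the other 9 tissues by at least 10 points in 2 clusters, both with uterus lowest, and this was the fewest of the 10 tissues, followed by ileum with 12. By at least 5 points, uterus was lowest in 6 clusters and highest in 13. No site in these 19 clusters had under 75 % of the reads of its neighbours. The clusters were chosen after their values were seen and get no test, and the SD given is over the CG sites of a cluster, which share reads and are not replicates. Taking each strand alone, with the CG sites that a library covered there, uterus was outside the other tissues on both strands in 4 of the 5 clusters with uterus lowest that had reads on both, and in 7 of the 10 with uterus highest. It was not outside them on the opposite strand of the cluster starting at position 41517841 of chromosome 25, where uterus had 93.3 % and testis 47.2 %. The same was true of the cluster starting at position 123322729 of chromosome 1 (9.28 % in uterus and 17.8 % in blood cells) and of that starting at position 41335446 of chromosome 27 (0.505 % in uterus and 2.07 % in skeletal muscle), and of the minus strand at chromosome 24.

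The widest gap was at chr5:108218464-108218494, whose 6 shared sites lie on the minus strand. Uterus had a mean level of 68.4 % ± 4.49 (SD, n = 6 sites), and the other tissues ranged from 88.6 % in mammary parenchyma over a median of 95.8 % to 97.96 % in nucleated blood cells. All 6 sites had uterus lowest, at 59.5 to 71.1 %, and 5 of them were called in up to 4 pairs. By way of comparison, 10.1 % of all sites were called in at least 1 of the 9 pairs of uterus. The opposite strand, which abomasum did not cover, gave 86.3 % in uterus over 7 sites and 90.0 to 98.3 % in the other 8 tissues, the same order with a smaller gap.

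In the cluster at chr22:60112537-60112579, both strands were read. The 10 sites averaged 77.5 % ± 5.84 in uterus and 91.5 % in mammary parenchyma to 97.6 % in nucleated blood cells elsewhere. Uterus was lowest at 8 of the 10, and the strands gave 82.1 % and 72.9 %. One of these sites was called, in 2 pairs.

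A second cluster of chromosome 22, at chr22:60024272-60024315, had a low level in uterus and a wide spread among the other tissues. Its 16 sites averaged 13.6 % ± 3.92 in uterus, 19.5 % ± 3.29 in nucleated blood cells, 34.4 % in skeletal muscle and 37.6 % in lactating mammary gland. The levels were 49.8 % in ileum, 54.2 % in abomasum, 55.2 % in mammary parenchyma, 65.4 % in frontal cortex, 73.6 % in rumen and 79.2 % in testis. All 16 sites were called in at least 1 pair, and up to 6 pairs were called at a site. The strands of uterus gave 13.5 % and 13.7 %, whereas those of skeletal muscle gave 17.3 % and 51.6 %. The gap of uterus to blood cells was 5.95 points, and none of these sites was a tDMC.

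Where uterus was the highest tissue, the others were mostly close to 0. The leading cluster, chr13:84030986-84031020, had 22.3 % ± 6.27 in uterus over 9 sites, 12.3 % in nucleated blood cells, 7.63 % in ileum and 1.93 to 4.72 % in the other 7 tissues. Both strands showed it, with 22.8 % and 22.1 % in uterus. None of its sites was called in a pair. The cluster at chr13:43110283-43110322 followed the same order at a lower level, with 13.4 % in uterus, 6.39 % in blood cells and 4.50 % in ileum over 13 sites. At chr24:39737963-39738008 uterus had 21.9 % ± 8.13 over 14 sites, blood cells 16.5 % and abomasum 15.8 %, with 2.13 to 5.82 % in the others. Here the strands disagreed, as abomasum lay above uterus on the minus strand (24.4 % against 19.7 %). Nucleated blood cells were the next highest tissue in 7 of the 13 clusters and ileum in 2. Over all 4898 clusters, blood cells were the highest of the 10 tissues in 1598, the most of any tissue, and ileum in 423. Only 1 of the 13 was far from 0 in all tissues, chr15:12900032-12900078, with 89.0 % ± 4.34 in uterus and 57.8 % in rumen to 83.1 % in lactating mammary gland.

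**Figure D3:**
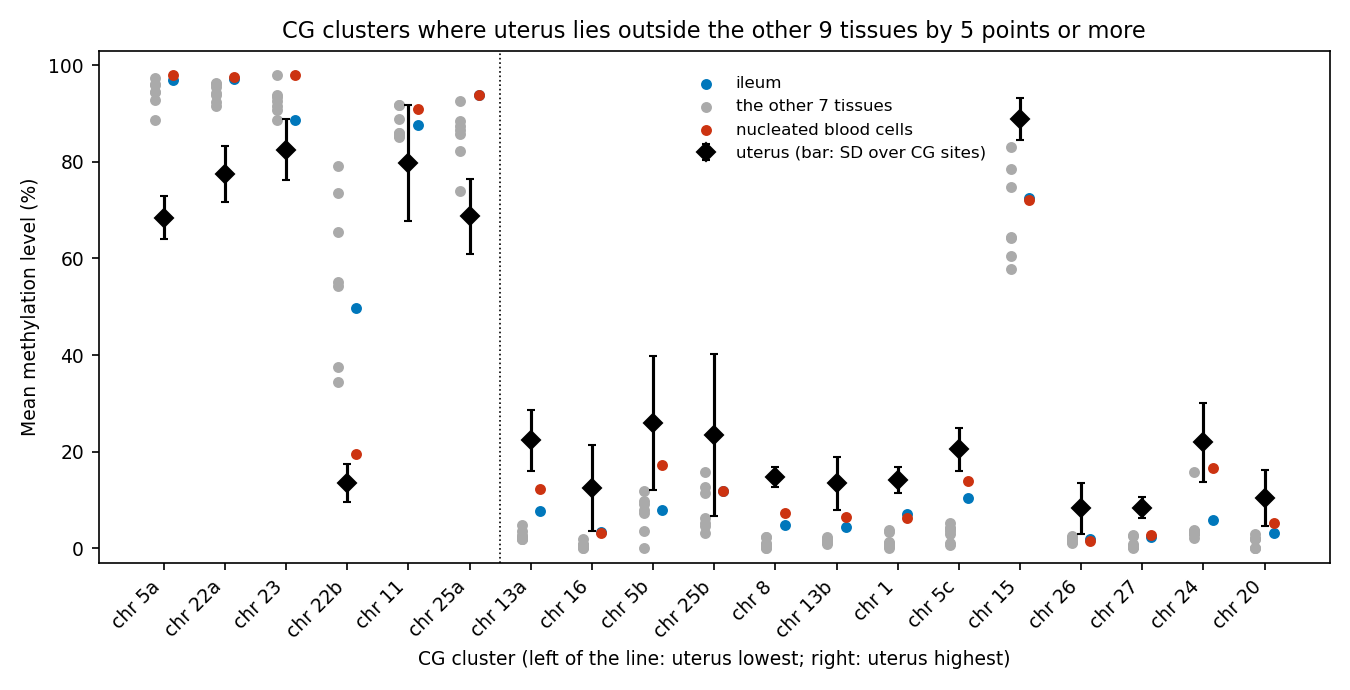
Mean methylation level (%) of the 19 CG clusters in which uterus lay outside the other 9 tissues by at least 5 points, 6 with uterus lowest (left of the dotted line) and 13 with uterus highest (right). Black diamonds are uterus with the SD over CG sites, red points nucleated blood cells, blue points ileum and grey points the other 7 tissues, and letters tell apart clusters of 1 chromosome. To the right of the line the nearest point below uterus is red in 7 clusters and blue in 2.

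At single sites the levels of the other tissues were less extreme. At the 135 sites with uterus highest by at least 10 points, the median level was 40.0 % in uterus and the median of the other tissues 12.5 %, and at the 34 with uterus lowest these values were 71.2 % and 94.0 %. The high sites lay on all 29 autosomes in 116 places, and the low sites on 13 autosomes in 21 places. A DMC in at least 1 pair was found at 40 of the 135 sites (29.6 %) and at 8 of the 34 (23.5 %). Over all sites the share was 10.1 %, and both sets were picked by a gap in the same levels that the calls use. The next highest tissue was nucleated blood cells at 1222 of the 3572 sites (34.2 %) with uterus highest and 1 tissue alone in second place, and ileum at 574 (16.1 %). Of the 40854 shared sites with 1 of the 9 tissues alone highest, that tissue was blood cells at 28.0 % and ileum at 11.1 %. A leading share for blood cells was thus present without regard to uterus. At the 135 sites the second place was held by blood cells at 44 of 124 (35.5 %) and by ileum at 22. At the 549 sites with uterus lowest, the largest share of second places was 17.1 % for testis. Of the 21105 shared sites with 1 of the 9 tissues alone lowest, testis was that tissue at 39.9 %. These differences in share were not tested.

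The 9 pairs of uterus all share its library and are given side by side. The fewest DMCs were found against ileum (179 sites, 0.349 % of those tested) and abomasum (205, 0.4 %), followed by skeletal muscle (308, 0.601 %) and mammary parenchyma (309, 0.603 %). Nucleated blood cells had 430 (0.839 %), rumen 504 (0.984 %), frontal cortex 667 (1.3 %), lactating mammary gland 765 (1.49 %) and testis 3340 (6.52 %). Abomasum had a median of 12 reads per site and ileum 50, and without regard to the test 4.19 % and 1.86 % of the sites, respectively, were at least 25 points from uterus. The part of depth in these numbers was not tested. Uterus was higher at 62.4 % to 94.0 % of the DMCs in 7 of the 9 pairs. It was lower at most DMCs with nucleated blood cells (337 lower, or 0.658 % of the sites tested, and 93 higher, or 0.182 %) and with ileum (113 lower, 0.221 %, and 66 higher, 0.129 %).

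**Figure D4:**
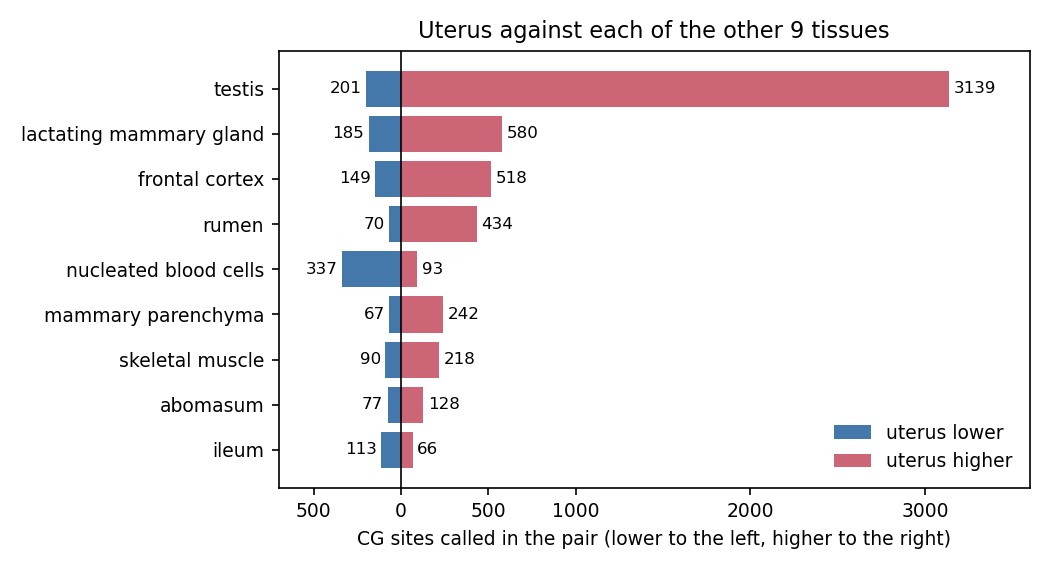
DMCs between uterus and each of the other 9 tissues, as the number of CG sites with uterus lower (blue, to the left of 0) or higher (red, to the right). Uterus is mostly higher in 7 pairs and mostly lower against nucleated blood cells and ileum.

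These DMCs were rarely shared between the partners of uterus. A call in at least 1 pair was made at 5169 sites (10.1 %), of which 4125 (79.8 %) were called in 1 pair only. Testis was the partner at 2777 of these 4125, and without testis 2392 sites (4.67 %) were called. Only 28 sites, 0.542 % of those called, passed in 5 or more pairs, against 2.37 to 29.8 % in the other tissues. At 174 sites uterus was higher than one tissue and lower than another, which was also the number in ileum and the largest of the 10. The distribution over pairs ended with 2 sites in 6 pairs, 3 in 7, 0 in 8 and the 3 tDMCs in 9.

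The tissue in whose direction uterus departed was then read at sites chosen without uterus. For each of the other 9 tissues, tDMCs were called against the remaining 8 with uterus left out, which gave 533 sites. The position of uterus at a site was scaled so that 0 % is the median of those 8 tissues and 100 % the tissue that was set apart. Uterus lay nearer to the tissue set apart at 19 of the 533 sites (3.56 %). At the 423 sites of tissues other than blood cells, it was nearer at 5 (1.18 %) and on their side of the median at 45.4 %. At the 345 sites of testis it was on the side of testis at 43.8 %.

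The 110 sites of nucleated blood cells differed from this. Uterus was on the side of blood cells at 108 of them (98.2 %) and nearer to blood cells than to the other tissues at 14. At the 50 sites with blood cells lower, the median levels were 2.60 % in blood cells, 52.2 % in uterus and 77.2 % in the other 8, a median position of 31.2 % (quartiles 24.9 and 41.04). At the 60 sites with blood cells higher, they were 96.9 %, 46.8 % and 19.9 %, a position of 38.2 % (quartiles 30.3 and 46.4). When the other tissues were held out in the same way, ileum stood at 24.4 % and 50.4 % and was on the side of blood cells at 90.5 % of the sites. The remaining 7 tissues had median positions from -29.6 to 20.2 %, with testis on the side of blood cells at 73.2 % and rumen at 14.9 %. Sites close to each other share reads, the difference between uterus and the other tissues was not tested, and the share of blood cells in the uterus sample was not measured.

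**Figure D5:**
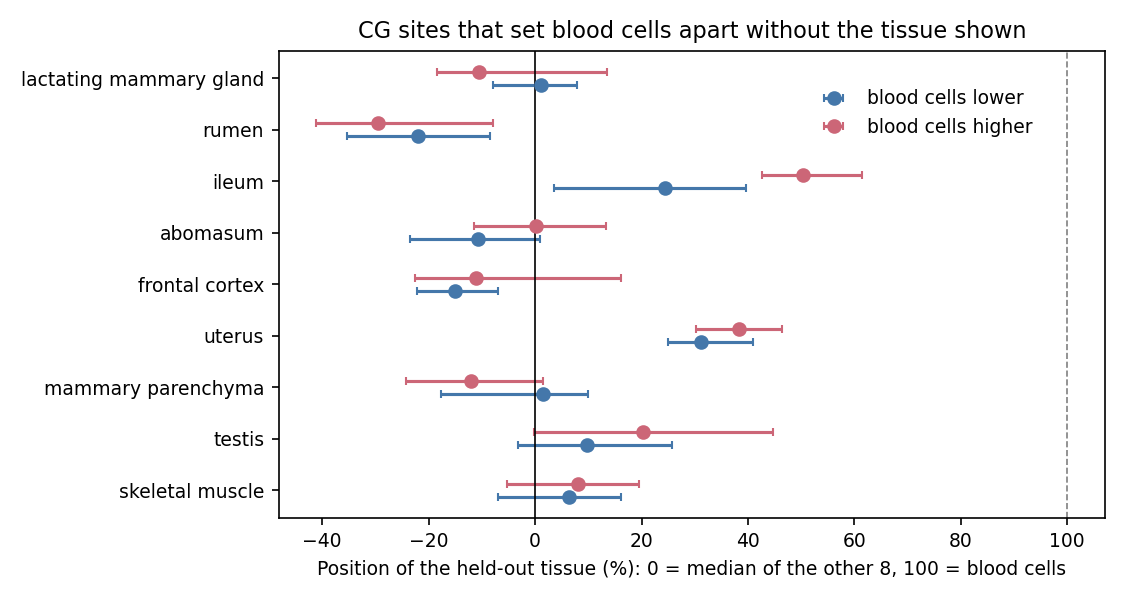
Median position (%) of each tissue, with quartiles as bars, at the CG sites that set nucleated blood cells apart when that tissue was left out, where 0 is the median of the other 8 tissues and 100 (dashed) is blood cells. Blue marks sites with blood cells lower and red those with blood cells higher. Uterus stands at 31.2 and 38.2 %, and ileum is the other tissue with both positions above 20.2 %.

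A related measure used the DMCs of uterus. At the sites called between uterus and another tissue, nucleated blood cells were nearer to uterus than to that tissue at 57.5 to 96.9 % of the sites over the 8 pairs, with a median of 93.9 %. For ileum the range was 67.0 to 91.6 % and the median 84.7 %, and for the other tissues the medians were 65.0 to 73.0 %. Blood cells lay beyond uterus, farther from the partner, at a median of 56.8 % of these sites. These sites were picked by the levels of uterus itself, which was the higher tissue at most DMCs of each of these pairs except ileum. Blood cells had the highest mean level of the libraries (31.8 %). The part of that general high level in these shares was not tested. In the direct pair, uterus and blood cells differed by a median of 2.33 points and by at least 25 points at 2.98 % of the sites.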

How the data were processed

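RRBS was done on 1 library from each of 10 bovine tissues. Paired-end reads of 49 bp were trimmed and mapped to UMD3.1 by the authors (a pipeline derived from SOAPaligner), who kept unique alignments and deposited cytosines with at least 8 reads. Read numbers were deposited as counts on each strand, without normalization and with a highest value of 65535, and methylation levels as a fraction of methylated reads. Deposited p-values, FDR values and a further read number were not used here. Methylated reads are the level times the reads, rounded to whole numbers. Tests were two-sided Fisher's exact tests (calls as given above), intervals are 95 % Wilson intervals for counting error only, since PCR copies cannot be told apart, and 1 tissue was set against 9 by exact permutation. Single sites were named if they were tDMCs, had a gap of at least 25 points, or were among the 5 widest gaps in either direction at 20 or more reads in every library. Members, lists and tests were chosen with earlier results of these data known. Alternatives were other read minimums, differences and adjustments, thinned reads, pooled strands, no top 1 % of coverage, each tissue left out and, added after the data were seen, 2 treatments of missing reads and means of clusters. Calls were also run on simulated reads with known changes in uterus, and the share recovered is not given here. The tools were Numba 0.67.0, pandas 2.3.3, matplotlib 3.10.9, SciPy 1.17.1 and NumPy 2.4.6 in Python 3.11.15, with seed 1.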

Additional observations from a re-analysis of the deposited data

How the results depend on the processing

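Of 71 values under alternatives, 44 stayed the same, 27 moved and 0 reversed. The same meant within 1.5 times the reported count or within the interval of the reported share. For the 3 alternatives of the number of tDMCs against the other 9 tissues, it meant only the same side of their mean. The 0 tDMCs with uterus lower held under 20 alternatives, while adding missing reads as unmethylated gave 1. The 3 tDMCs with uterus higher became 1 with thinned reads, 0 with strands pooled, without sites missing reads, with missing reads added or with a difference of 40 points, and 7 with 10 points. For uterus lowest by 25 points, in place of 1 site there were 0 at 10 or 20 reads, with pooled strands or over clusters, 28 with thinned reads and 34 with a gap of 10 points. For uterus highest by 25 points, in place of 4 sites there were 0 with pooled strands, without sites missing reads or over clusters, 79 with thinned reads and 135 with a gap of 10 points. The values of 0 without sites missing reads follow from the removal of those sites. Pooling needed both strands at a site, and none of these single sites had both. The median of 430 DMCs over the 9 pairs was 116 at 20 reads, 40 with thinned reads, 283 with pooled strands, 259 at 40 points and 219 with Benjamini-Yekutieli adjustment. Uterus was nearer to the tissue set apart at 1.30 % of 385 sites at 20 reads and at 0 % of 132 sites with thinned reads, and on the side of blood cells at 100 % of 12 sites and of 1 site. The 20-read minimum left 7147 sites, pooling 12912 and thinning a median of 12 reads per site, and the cause of other shifts was not tested. With thinned reads uterus had 107 sites at the end of the range by 25 points, second fewest after ileum with 82, against 130 to 1564 in the others, whereas with all reads uterus had the fewest. No paired analysis was possible because each tissue has 1 library and no replicate number.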

Other observations

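Outside the CG context and on the X chromosome, uterus had no tDMC. None of 38838 autosomal CHG sites, 56500 CHH sites and 1050 X-linked CG sites covered in all 10 libraries passed in its 9 pairs by Fisher's exact test, where 69, 166 and 389 sites, respectively, were called in at least 1 pair. Other tissues without a tDMC were 4 at CHG sites, 5 at CHH sites and 8 at X-linked CG sites, where testis alone had tDMCs, 11 with a lower level. The mean level in uterus was 1.13 % at CHG and 1.62 % at CHH sites, against 0.990 to 1.19 % and 1.52 to 1.71 % in the other tissues.

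Missing reads were not particular to uterus. Between 552 and 1116 of the shared CG sites had under 75 % of the reads of their neighbours in each of the other 9 libraries. Among the sites at which a tissue was highest by 25 points or more, they made up 4 of 10 in ileum, 2 of 3 in rumen, 17 of 114 in abomasum and 2 of 210 in nucleated blood cells. Their cause was not tested.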
